A study of Homo sapiens with 5 samples.

Results

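Expression of 10 genes of the LKB1 complex and the AMPK-related kinase family was followed across 5 exon arrays of 2 human lung cancer cell lines. They were taken by name, as known members of this pathway, with earlier results of these data known, and each was read from the 1 array feature that carries its symbol alone. All 10 of 10 had such a feature, among 14232 named genes in all. The lung adenocarcinoma line A549, which has lost LKB1 function by mutation and expresses much NEDD9, a scaffold protein of focal adhesions, gave 3 arrays. They are a control (n = 1) and knockdown of NEDD9 with each of 2 short hairpins (n = 2). The lung cancer line CRL-5907, in which the submitters call LKB1 wild-type and NEDD9 low, gave 2 arrays, a control (n = 1) and 1 with NEDD9 overexpressed (n = 1). The labels do not say what construct the control cells carried, how NEDD9 was overexpressed, whether cells were clones or pools, or whether arrays came from separate cultures. P-values therefore measure only the spread between these arrays, which may be technical. In these bulk samples fewer cells of a kind and less RNA per cell cannot be told apart.

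LKB1, encoded by STK11, is a tumour suppressor kinase that works in a complex. A STRAD pseudokinase (STRADA or STRADB) binds it and switches it on, and an MO25 scaffold protein (CAB39 or CAB39L) holds the complex together. The active complex phosphorylates the activation loop of AMPK, the cell's sensor of low energy, and of a family of AMPK-related kinases. The AMPK catalytic subunits are PRKAA1 and PRKAA2. SIK2 and SIK3 are salt-inducible kinases, which keep the CRTC coactivators of CREB out of the nucleus. NUAK1 acts on the phosphatase that controls myosin and cell adhesion. LKB1 is lost in many lung adenocarcinomas. The arrays measure RNA, and an RNA level does not show whether LKB1 or its target kinases are active.

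All values are log2 expression levels, so that a difference of 1 is 2-fold. The arrays gave closely matched distributions (medians over all features of 5.56 to 5.69), and the number of arrays limits the precision. NEDD9 followed the labels: 8.94 on the A549 control, 8.35 and 8.52 with the hairpins, 4.66 on the CRL-5907 control and 9.49 with overexpression. The knockdown was thus partial. All 6 epithelial markers (EPCAM, CDH1 and 4 keratins) were above the median of every array. The alveolar markers SFTPB and SFTPC, the 2 of 4 that were measured, were below it on all 5 arrays. No leukocyte, fibroblast or endothelial marker was above the median on all 5 arrays. Of the 11 measured in these 3 lists, CD14 and COL1A1 were above it on some. Levels are compared between arrays for 1 gene at a time, never between genes, because each feature has its own probes. As a yardstick for single arrays, the SD of hairpin 1 minus hairpin 2 was taken over genes of like level. It lay between 0.149 and 0.241 for the 10 genes. This SD also holds true differences between the hairpins.

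Of the 10 genes, 8 lay above the array median on all 5 arrays, and the other 2, STRADB and CAB39L, lay below it on all 5. These 2 were not shown to exceed background, so in the main analysis they entered no test and no count of called genes. The medians and signs given over all 10 genes include them, as does the alternative without a level filter. The level of STK11 was nearly the same everywhere, from 6.11 to 6.23. It was 6.23 on the A549 control, 6.11 with hairpin 1, and 6.13 with hairpin 2 and on both CRL-5907 arrays, where the deposited values are exactly equal. RMA, the normalization the submitters used, can give such ties, and 6.25% to 8.97% of all features were tied in any pair of arrays. The lowest A549 value, with hairpin 1, minus the CRL-5907 control was -0.02. The widest range over the 5 arrays was that of SIK2 (1.12), followed by NUAK1 (1.04), SIK3 (0.89) and PRKAA2 (0.76). The narrowest was that of STK11 (0.13).

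**Figure D1:**
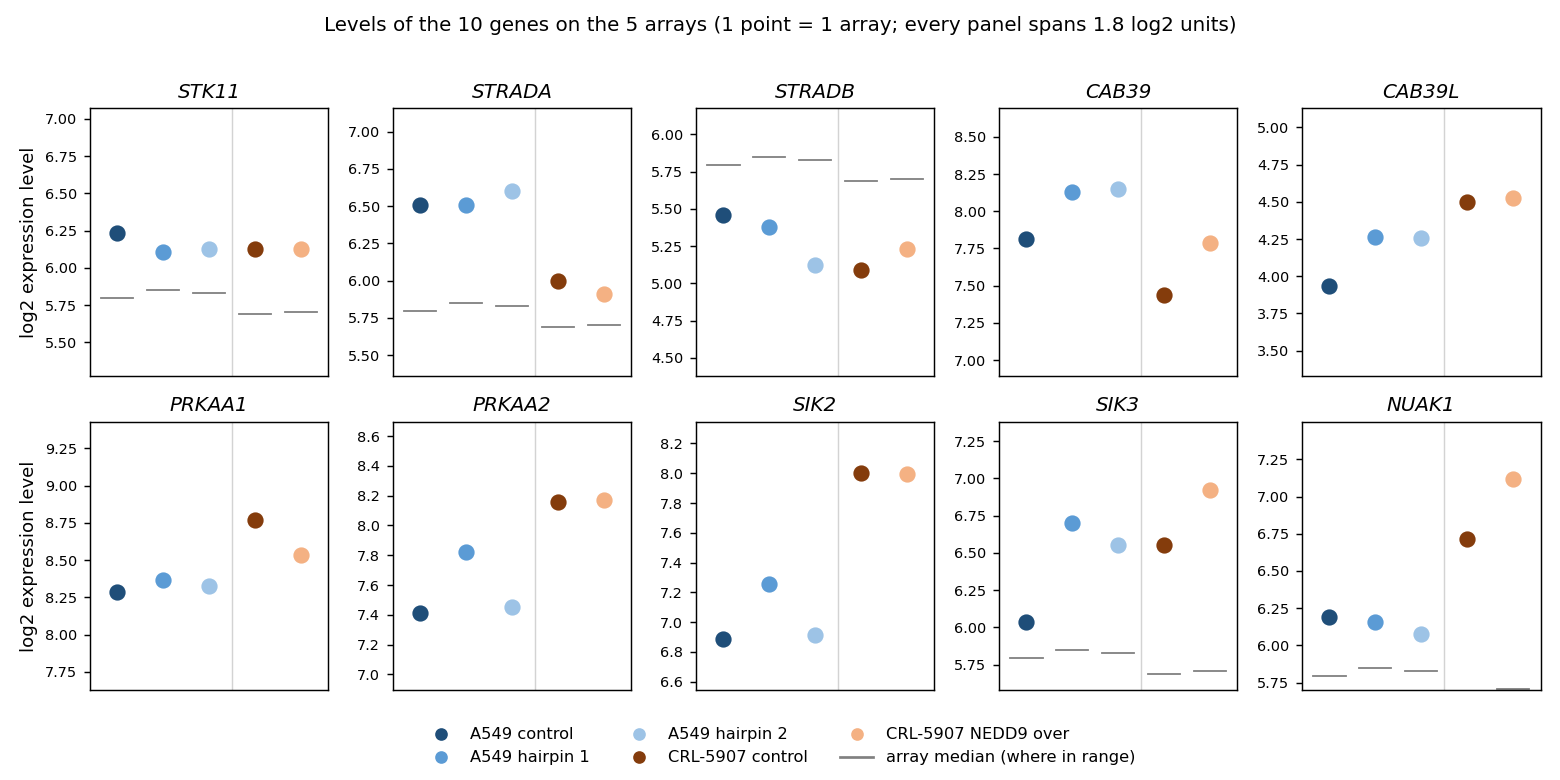
Log2 expression level (vertical axis) of each of the 10 genes on the 5 arrays; 1 point is 1 array, blue for A549 and brown or orange for CRL-5907, and grey dashes are the array medians where they fall in range. STRADA and CAB39 lie higher on every A549 array, PRKAA1, PRKAA2, SIK2, NUAK1 and CAB39L lie lower on every A549 array, and SIK3 is lowest on the A549 control alone.

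Between the control arrays, the 5 downstream kinases among the 10 genes were lower on the A549 control than on the CRL-5907 control. STK11, STRADA, STRADB and CAB39 were higher. The lower level did not extend to the whole kinase family. Of 10 other AMPK-related kinases, taken up below, 6 were higher on the A549 control and 4 lower (median 0.055). That list includes MARK1 and MELK, which were below the array medians. Across the 10 genes followed here the median log2 difference, A549 control minus CRL-5907 control, was -0.50, with 4 higher and 6 lower. Over the 7716 genes tested the median was 0.05 and 55.1% were higher. A count of genes at least 2-fold apart held 1 of the 8, SIK2, which was lower in A549. In the background 5% of the tested genes were at least 2-fold lower in A549 and 9.88% at least 2-fold higher. With 1 array per line these differences have no replicate check. The 5 arrays together allow a test of the lines, 3 arrays of A549 against 2 of CRL-5907, in which the spread within a line also holds the NEDD9 manipulation. Arrays of a line share its cells, so this limma test compares these arrays and nothing wider. With Benjamini-Hochberg adjustment over 7987 genes it called 4 of the 8 lower in A549, where the background was 17.7%, and 1 of the 8 higher, where the background was 31.8%. Every A549 array lay below both CRL-5907 arrays for 4 of the 8 genes (PRKAA1, PRKAA2, SIK2 and NUAK1), beside 26.9% of all genes, and above both for 2 of the 8 (STRADA and CAB39), beside 41%. An exact permutation of 3 against 2 arrays cannot give a p below 0.1 for a single gene.

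SIK2, a salt-inducible kinase, had the largest difference among the 10 genes. Its level was 6.88 on the A549 control, 7.25 with hairpin 1 and 6.91 with hairpin 2, against 8.001 on the CRL-5907 control and 7.998 on the overexpression array. Every A549 array lay below both CRL-5907 arrays by more than the yardstick SD of 0.161. The control difference was -1.12, or 2.17-fold more in CRL-5907. Over all arrays the difference was -0.98 (SE 0.13, limma, adjusted p = 0.00249). It was called under all 11 alternatives tried, with an adjusted p from 0.000167 to 0.0421 in limma. The 3 genes whose profile over the 5 arrays was nearest to that of SIK2, out of 7986, were SDC4, C3 and SQOR. Their mean absolute differences from it after centring were 0.042, 0.043 and 0.046 log2 units.

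SIK3, its close relative, gave another picture. Its level was 6.03 on the A549 control, 6.70 and 6.55 with the hairpins, 6.56 on the CRL-5907 control and 6.92 with overexpression. The A549 control stood well below the CRL-5907 arrays, hairpin 2 lay beside the CRL-5907 control and hairpin 1 above it, so that the lines overlapped. The control difference was -0.52, but the mean of the hairpin arrays lay 0.07 above the CRL-5907 control. Over all arrays the difference was -0.31 (SE 0.23, limma, adjusted p = 0.302).

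NUAK1 was at 6.19 on the A549 control, 6.16 and 6.08 with the hairpins, 6.72 on the CRL-5907 control and 7.12 with overexpression. The A549 arrays kept within 0.11 of their control, and both CRL-5907 arrays were higher. The control difference was -0.53, and over all arrays it was -0.78 (SE 0.13, limma, adjusted p = 0.0058). It too was called under all 11 alternatives.

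Both AMPK catalytic subunits were lower in A549. PRKAA2, the alpha2 subunit, was at 7.41 on the A549 control, 7.82 and 7.45 with the hairpins, and 8.16 and 8.17 on the CRL-5907 arrays. PRKAA1, the alpha1 subunit, was at 8.29, 8.37 and 8.33 in A549 (control, hairpin 1, hairpin 2), 8.77 on the CRL-5907 control and 8.53 with overexpression. For either gene no A549 array reached the lower CRL-5907 array. The control differences were -0.74 for PRKAA2 and -0.48 for PRKAA1. Over all arrays they were -0.60 (SE 0.14, limma, adjusted p = 0.0173) and -0.32 (SE 0.10, limma, adjusted p = 0.0377). These calls hung on single arrays. The PRKAA1 call was lost without the A549 control, without either hairpin or without the CRL-5907 control (limma adjusted p from 0.0764 to 0.118). The PRKAA2 call was lost without the A549 control, without hairpin 2 or without either CRL-5907 array (limma adjusted p from 0.0501 to 0.125). Without the A549 control, hairpin 2 or the CRL-5907 control, 2 of the 8 genes were called lower in place of 4.

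Of the 4 partners of LKB1, STRADA was called higher in A549 and the others were not called or not tested. STRADA was at 6.51 on the A549 control, 6.51 and 6.60 with the hairpins, and 5.997 and 5.91 on the CRL-5907 control and overexpression arrays. All 3 A549 arrays stood above both CRL-5907 arrays. The control difference was 0.51, or 1.43-fold more in A549, and over all arrays it was 0.59 (SE 0.07, limma, adjusted p = 0.0022). STRADB, below the array medians, was at 5.46, 5.38 and 5.12 in A549 and at 5.09 and 5.23 in CRL-5907, and the lines overlapped. CAB39, the MO25 alpha scaffold, was at 7.81, 8.13 and 8.15 in A549 and at 7.44 and 7.79 in CRL-5907. The lowest A549 array and the highest CRL-5907 array were only 0.02 apart. Its difference over all arrays was 0.42 (SE 0.16, limma, adjusted p = 0.0758). It was called without the A549 control (0.53, limma adjusted p = 0.0463). CAB39L, the beta form, ran the other way, at 3.93, 4.26 and 4.26 in A549 and 4.50 and 4.52 in CRL-5907, but below the array medians throughout. STK11 itself differed by 0.11 between the controls and by 0.03 over all arrays (SE 0.08, limma, adjusted p = 0.784). Its control difference ranged from -0.02 to 0.11 across the scaling alternatives, so its sign was not settled.

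**Figure D2:**
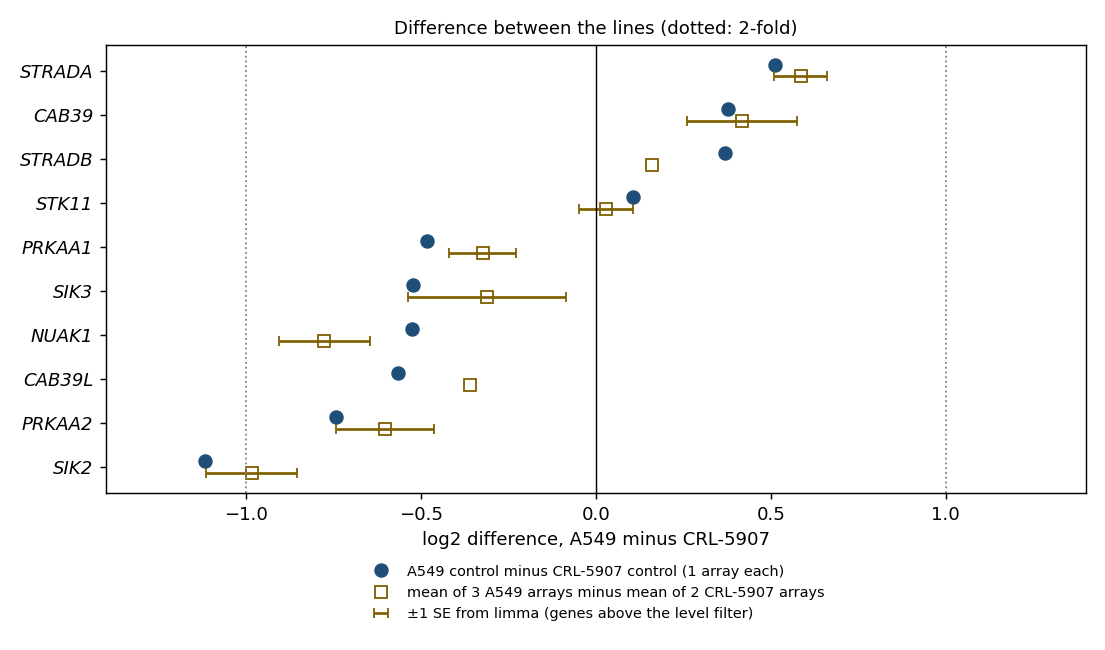
Log2 difference, A549 minus CRL-5907 (horizontal axis), for the 10 genes ordered by the difference of the control arrays (filled circles); open squares are the mean of 3 A549 arrays minus the mean of 2 CRL-5907 arrays with ±1 SE from limma, and dotted lines mark 2-fold. SIK2 lies at -1.12 between the controls and -0.98 over all arrays, and STRADA lies at 0.51 and 0.59.

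Of the 10 genes, SIK2 and SIK3 had the largest difference between the lines and the largest change with knockdown. The 250 bases upstream of their RefSeq starts are shown because SIKs act on CRTC and CREB, and the letters searched are the core of the cAMP response element that CREB recognises. Capitals mark TGACG, or CGTCA where it lies on the other strand. The sequences are from RefSeq on GRCh38.p14 and run 5′ to 3′ toward the start site, SIK2 at chr11:111602199-111602448 on the plus strand and SIK3 at chr11:117098429-117098678 on the minus strand.
SIK2: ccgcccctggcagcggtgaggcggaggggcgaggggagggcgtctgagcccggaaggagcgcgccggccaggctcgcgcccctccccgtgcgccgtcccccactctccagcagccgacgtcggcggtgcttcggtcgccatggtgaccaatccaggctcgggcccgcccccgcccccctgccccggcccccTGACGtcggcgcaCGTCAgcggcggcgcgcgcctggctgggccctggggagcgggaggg
SIK3: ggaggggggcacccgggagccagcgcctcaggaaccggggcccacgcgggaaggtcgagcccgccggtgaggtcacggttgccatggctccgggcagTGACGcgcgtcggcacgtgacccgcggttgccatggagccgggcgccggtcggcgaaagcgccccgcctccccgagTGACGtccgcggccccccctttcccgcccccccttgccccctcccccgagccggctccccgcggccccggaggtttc
In SIK2 the matches begin 59 and 46 bases before the start, on opposite strands. In SIK3 they begin 153 and 77 bases before it, both on the gene's own strand. Of the 9 genes with an entry, STK11, SIK2 and SIK3 held 2 matches and CAB39L held 1. The full palindrome TGACGTCA, which contains the core on both strands, was in none of them. Of 35116 upstream windows of the same length, 21.2% held the core at least once, 4.76% at least 2 times and 1.65% the full palindrome. A match is a description of the letters and not a binding site, and whether CREB acts on any of these genes was not tested.

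With NEDD9 knockdown in A549, SIK3 and CAB39 were higher with both hairpins, and the other genes above the median level moved little or with 1 hairpin only. No gene of the 8 was at least 1.5-fold from the control with both hairpins in the same direction, higher or lower. In the background 0.708% of 7485 genes were that much higher and 0.134% that much lower. With 1 hairpin at a time, SIK3 alone of the 8 was 1.5-fold higher with hairpin 1, beside 2.57% of all genes, and none with hairpin 2, beside 1.35%. At 1.3-fold with both hairpins the count was 1 of the 8, again SIK3, beside 3.51%. By sign alone 5 of the 8 were higher with both hairpins, beside 53.7% of all genes. limma called 0 of the 8 after Benjamini-Hochberg adjustment at 0.05, and 0% of all 7485 genes. At an unadjusted p under 0.05 limma gave 2 of the 8, CAB39 and SIK3, beside 17.5% of all genes. The test has 1 residual degree of freedom, since its error comes from the 2 hairpin arrays and the lone control is taken to vary as they do. The median over the 10 genes was 0.20 with hairpin 1 and 0.04 with hairpin 2, beside 0.10 and 0.04 over all genes tested.

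SIK3 was furthest from its control, with 6.03 there against 6.70 for hairpin 1 (1.59-fold) and 6.55 for hairpin 2 (1.43-fold). Both hairpin arrays were well above the control, by 0.67 and 0.52 against a yardstick SD of 0.165. The mean difference was 0.59 ± 0.11 (SD, n = 2), with a limma adjusted p of 0.276. Both differences subtract the same control array, which was the lowest of all 5 arrays for SIK3 and also enters the comparison of the lines. CAB39 was at 0.32 and 0.34 above its control of 7.81, a mean of 0.33 ± 0.01 (SD, n = 2; limma adjusted p = 0.276). In all 2 of the 8 genes, CAB39 and SIK3, were thus higher with both hairpins by more than the SD of genes of like level. In the background this held for 23% of genes. No gene of the 8 was lower by that measure, beside 5.42% of all genes. CAB39L, below the array medians, was at 0.33 and 0.32.

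PRKAA2 and SIK2 were higher with hairpin 1 only. PRKAA2 was at 0.41 with hairpin 1 and 0.04 with hairpin 2, and SIK2 at 0.37 and 0.03. Hairpin 1 was also the array with the larger shift over all genes. The difference between the hairpins was not tested for these genes. PRKAA1 was at 0.08 and 0.04, STRADA at 0.00 and 0.09, NUAK1 at -0.03 and -0.11 and STK11 at -0.13 and -0.11. All of these lie within the yardstick SD of each gene. The signs of PRKAA1 with both hairpins and of PRKAA2 and SIK2 with hairpin 2 flipped under another scaling of the arrays, and STRADA with hairpin 1 moved from 0.00 to as low as -0.09. STRADB, below the medians, was at -0.08 and -0.34.

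With NEDD9 overexpression in CRL-5907, NUAK1, SIK3 and CAB39 were the highest of the 10 genes relative to the control, and PRKAA1 was the lowest. No gene of the 8 above the median level reached 1.5-fold in either direction, beside 3.5% of 7410 genes higher and 0.85% lower. At 1.3-fold 1 of the 8, NUAK1, was higher, beside 9.42% of all genes. NUAK1 went from 6.72 to 7.12, a difference of 0.40 or 1.32-fold. SIK3 went from 6.56 to 6.92 (0.37, 1.29-fold) and CAB39 from 7.44 to 7.79 (0.35, 1.28-fold). These 3 genes exceeded the SD of genes of like level, as did 30.8% of all genes. PRKAA1 fell short of its control, 8.77 against 8.53, a difference of -0.23, and was the only gene of the 8 lower by more than that SD, beside 14.7% of all genes. SIK2 (-0.00), PRKAA2 (0.02), STRADA (-0.09) and STK11 (0.00) stayed within it. The STK11 value is a tie of 2 deposited values, and the sign of PRKAA2 changed under another scaling of the arrays. CAB39L was at 0.02 and STRADB at 0.14, both below the array medians. With 1 array in each condition there is no replicate check and no test. The median over the 10 genes was 0.02, beside 0.05 over all genes tested.

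**Figure D3:**
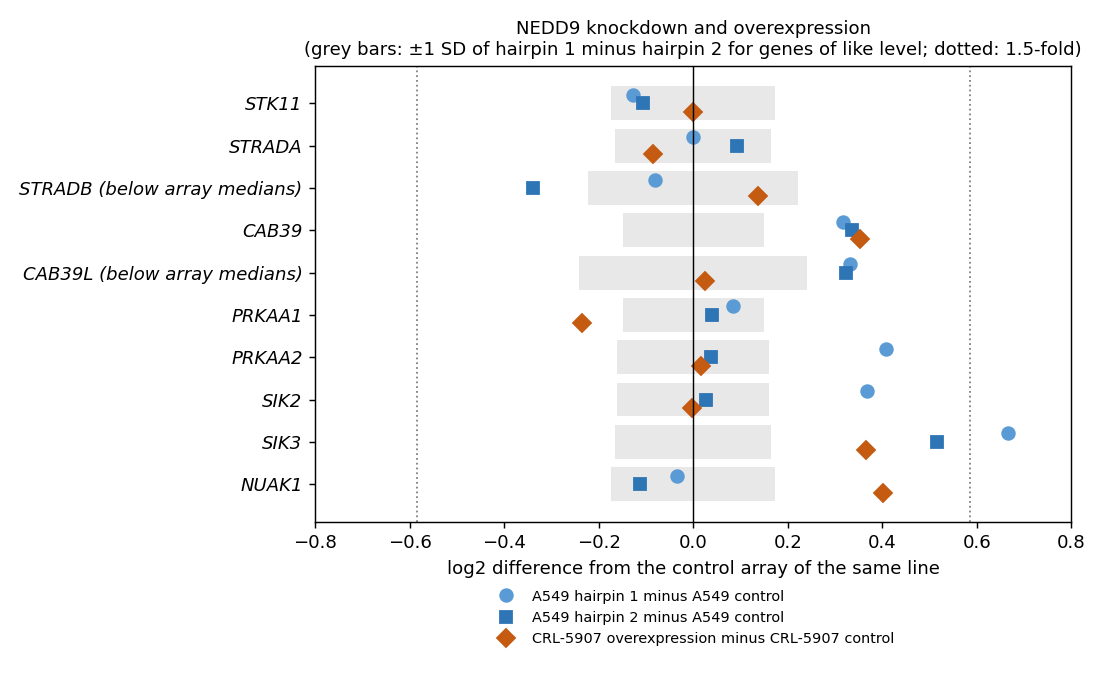
Log2 difference from the control array of the same line (horizontal axis) for each of the 10 genes with hairpin 1 (circles), hairpin 2 (squares) and NEDD9 overexpression (diamonds); grey bars span ±1 SD of hairpin 1 minus hairpin 2 over genes of like level and dotted lines mark 1.5-fold. SIK3 and CAB39 lie to the right of the grey bar on all 3 manipulated arrays, while NUAK1 does so with overexpression only.

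CAB39 and SIK3 were therefore above the control of their own line on all 3 manipulated arrays, whether NEDD9 had been lowered or raised. For CAB39 the 3 differences were 0.32, 0.34 and 0.35, and for SIK3 they were 0.67, 0.52 and 0.37. Their signs held under every scaling of the arrays that was tried. Of the 6856 genes above the level filter in both lines, 8.74% were likewise higher than the SD of their level on all 3. NUAK1 differed from this pattern, at -0.03 and -0.11 with the hairpins and 0.40 with overexpression.

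The other genes around LKB1 and AMPK were taken from 6 lists of the pathway. Of the 5 regulatory subunits of AMPK, all measured, 4 were above the median level and none passed 1.5-fold with both hairpins or with overexpression. limma over all arrays called 1 of the 4 higher in A549 (PRKAG1) and 2 lower (PRKAB1 and PRKAG2), beside 31.8% and 17.7% of all genes. PRKAG2, a gamma subunit that senses AMP, was at -0.57 between the controls, PRKAG1, another gamma subunit, at 0.49, and PRKAB1, a beta subunit, at -0.45. PRKAB2, the other beta subunit, named here after its values were seen, was at -0.58 with overexpression, just short of 1.5-fold. Its own level was 8.66 on the CRL-5907 control and 8.08 with overexpression. PRKAA1, a partner of these subunits in AMPK, was at -0.23 in the same comparison. The other AMPK subunits above the median level were at 0.02 (PRKAA2), -0.04 (PRKAB1), -0.05 (PRKAG1) and 0.07 (PRKAG2).

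Of the 10 other AMPK-related kinases, 8 were above the median level, and none passed a fold threshold in any comparison. limma over all arrays called 1 of the 8 higher in A549 (NUAK2) and 2 lower (MARK4 and SNRK), beside 31.8% and 17.7% of all genes. NUAK2, the relative of NUAK1, was at 0.89 between the controls, opposite in sign to NUAK1 (-0.53). MARK4, a kinase of microtubule-associated proteins, was at -0.60 and SNRK at -0.37. With overexpression the median over all 10 genes of this list was 0.31. It includes MARK1 (0.62) and MELK (0.46), which were below the array medians throughout. The median of 0.05 over all genes tested leaves such genes out, so the sets are unlike. This list holds MELK, which is not a target of LKB1.

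Of 11 other upstream kinases and regulators of AMPK, 7 were measured, and 5 entered the count with knockdown. SESN3, a sestrin that activates AMPK under stress, was the only one past 1.5-fold on both hairpin arrays (0.84 and 0.63), beside 0.708% of all genes. It reached 6.18 and 5.97 with the hairpins from 5.34 on the control, which lay below that array's median. SESN3 thus entered this count only through the hairpin arrays, so the sizes are uncertain and its knockdown count is not used. The share over all genes holds such genes too. SESN3 was below the median on both CRL-5907 arrays too (4.38 and 4.65), and its call between the lines is not used. limma over all arrays called AXIN1 lower in A549, beside 17.7% of all genes. SESN2 was at -0.41 between the controls, AXIN1 at -0.23 and MAP3K7, a kinase that can act on AMPK in place of LKB1, at -0.11.

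Among 17 AMPK substrates and effectors, 15 were measured, and each was above the median on at least 1 control array. Between the controls 2 of the 15 were at least 2-fold higher in A549 and 1 was at least 2-fold lower, beside 9.88% and 5% of all genes. The higher ones were ACACB, an acetyl-CoA carboxylase (6.20 on the A549 control, 4.75 on the CRL-5907 control), and TBC1D4, which controls glucose uptake (6.16 and 4.82). Both were below the median on the CRL-5907 control and entered this count only through A549, so the sizes are uncertain. The lower one was PFKFB2, a regulator of glycolysis, above the median on both, with a difference of -1.03. limma over all arrays called 4 of the 15 higher (ACACB, TBC1D4, EEF2K and PPARGC1A) and 2 lower (PFKFB2 and MLXIPL), beside 31.8% and 17.7% of all genes. ACACB and TBC1D4 were below the median on the overexpression array too, so their calls between the lines are not used. None of the 15 passed 1.5-fold with both hairpins or, above the level filter, with overexpression. Of 9 SIK and NUAK substrates, 8 were measured and 7 were above the median level, and none passed a fold threshold. HDAC4, a class IIa deacetylase held in the cytoplasm by SIKs, was at -0.61 between the controls and CRTC2, a CREB coactivator, at -0.32, both called lower in A549 by limma (2 of the 7, beside 17.7% of all genes). PPP1CB, the phosphatase subunit in the myosin phosphatase that NUAK1 acts on, was at 0.54 and was called higher (1 of the 7, beside 31.8%).

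Of 17 genes that earlier work linked to LKB1 loss in lung adenocarcinoma, 16 were measured. limma over all arrays called 6 of the 16 higher in A549 (AVPI1, DUSP4, INSL4, PDE4D, TESC and TFF1) and 3 lower (GLCE, HAL and TACC2). These shares lie near the 31.8% and 17.7% over all genes. INSL4 and TFF1 passed the level filter through A549 alone and HAL through CRL-5907 alone. The counts and the shares over all genes hold such genes, but the calls of INSL4, TFF1 and HAL between the lines are not used. GLCE, above the array median in both lines, differed by -1.84 between the controls. TFF1, a trefoil factor, was at 6.34 on the A549 control and below the median on the CRL-5907 control (4.92). HAL, the enzyme that breaks down histidine, was below the median on the A549 control (4.12) and at 8.22 on the CRL-5907 control. The size of such a difference depends on a value not shown to exceed background. INSL4, an insulin-family peptide, and FGA, the fibrinogen alpha chain, were past 1.5-fold on both hairpin arrays (1.12 and 1.20 for INSL4, 0.75 and 0.82 for FGA), beside 0.708% of all genes that were that much higher. INSL4 was at 5.79 on the A549 control, just below that array's median, and below the median on both CRL-5907 arrays. It entered the knockdown count only through the hairpin arrays, so its place in that count is not used either.

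**Figure D4:**
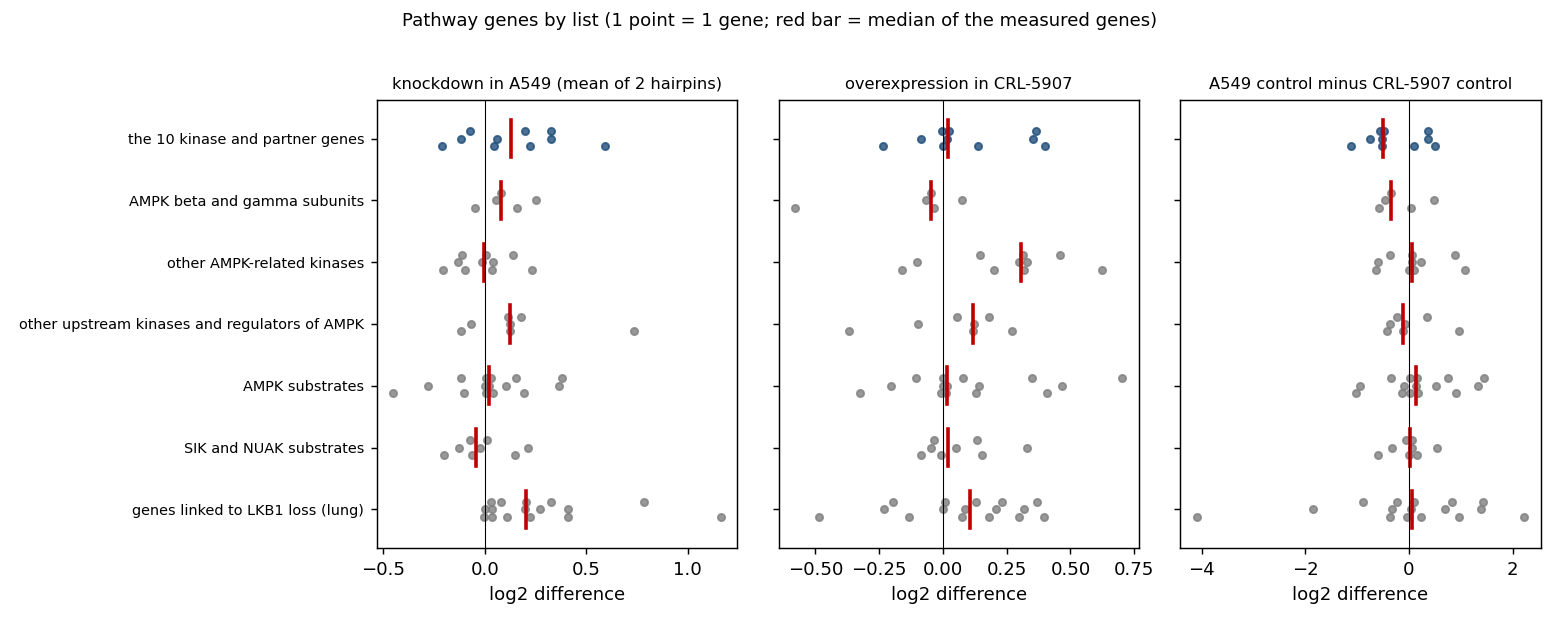
Log2 difference (horizontal axes) of each measured gene of 6 pathway lists and of the 10 genes in the top row, with knockdown (mean of 2 hairpins), with overexpression and between the control arrays; 1 point is 1 gene and red bars are medians. The 10 genes have a median of -0.50 between the controls, and the other AMPK-related kinases have a median of 0.31 with overexpression. Both medians include genes below the array medians.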

How the data were processed

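RNA was isolated with Trizol, freed of ribosomal RNA, amplified and hybridised to 1 exon array per sample, per the labels' protocols. The authors deposited log2 levels of 22011 features, which the submitters' processing notes say came from RMA and Affymetrix Power Tools. RMA normalizes the arrays together, which can hide a change shared by most genes. The log base was read from the values. Genome build and background detection are not given in the sources used here.

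Features with 1 gene symbol (14432; 2408 had several and 5171 none) gave 14232 genes, with the brightest feature where a gene had several. A gene was tested if, on the array where it was brightest, it exceeded the median of named features (7485 genes for knockdown, 7410 for overexpression, 7716 for the controls, 7987 for the lines). limma 3.58.1 (R 4.3.3, trended eBayes) was fitted over all genes tested, with Benjamini-Hochberg adjustment at 0.05. Residual degrees of freedom were 1 for knockdown (prior 0.728) and 3 for the lines (prior 2.49). Both fits were run on simulated data with planted changes and independent noise of equal size for every gene, a simpler setting than these arrays. The estimated sizes had to be recovered in both fits, but calls were required of the line fit only. The yardstick SD is that of hairpin 1 minus hairpin 2 in 20 bins of level. For the second hairpin the title (NEDD9) was followed where the description says NEDD10.

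Genes, lists, tests and alternatives were chosen with earlier results of these data known. The alternatives were median centring, a second quantile normalization, feature means, no level filter or the 75th percentile, removal of the trend with level, eBayes without a trend, all 5 arrays in the knockdown fit, other fold thresholds and each array left out. Besides the 10 genes and NEDD9, the text names up to 3 genes of each list with the largest control difference above the median level, list genes past 1.5-fold on both hairpin arrays or with overexpression, and the 3 genes nearest in profile to the gene of widest range. Genes named for a limma call, PRKAB2 and those under other observations were chosen after their values were seen.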

Additional observations from a re-analysis of the deposited data

Results flagged for a closer look

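CAB39 and SIK3 were flagged because the arrays with more NEDD9 lay lower in A549 and higher in CRL-5907. In A549 the control lay below both hairpin arrays, by 0.32 and 0.34 for CAB39 and by 0.67 and 0.52 for SIK3. In CRL-5907 the overexpression array lay above the control by 0.35 for CAB39 and by 0.37 for SIK3. Each of these differences exceeded the SD between the hairpins for genes of like level. The same held for 8.74% of the 6856 genes above the level filter in both lines. Both hairpin differences subtract the same A549 control array, which was the lowest of all 5 arrays for SIK3, and CRL-5907 also has 1 control array. The difference between the lines in this effect was not tested.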

How the results depend on the processing

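No paired analysis was possible because the control and knockdown groups share fewer than 2 replicate numbers. All 240 differences of single genes moved by less than the yardstick SD under the alternatives, and no called difference changed sign. Feature means and other level filters could not move them, since each gene has 1 feature and a filter alters no level. Only centring, the second quantile normalization and removal of the trend could. The counts with a fold threshold depended on that threshold. At 1.3-fold, 1 of the 8 genes (SIK3) was higher with both hairpins and 1 (NUAK1) with overexpression, beside 3.51% and 9.42% of all genes. Between the control arrays 2 genes (SIK2 and PRKAA2) were lower in A549 at 1.5-fold, beside 11.1% of all genes, and 0 at 4-fold. With the filter at the 75th percentile 0 genes were called higher in A549 over all arrays, because STRADA no longer entered the test. When each array was left out in turn, from 1 to 2 genes were called higher in A549 and from 2 to 3 lower. Where this left a single CRL-5907 array, it was assumed to vary like the others. With 1 hairpin at a time, from 0 to 1 genes were 1.5-fold higher, the 1 being SIK3 with hairpin 1. These are values with no test. Without a filter, where STRADB and CAB39L entered the test too, 3 genes were called lower in A549. SIK2 and NUAK1 were among them (limma adjusted p = 0.0118 and 0.0221). PRKAA1 was then no longer called (limma adjusted p = 0.063). PRKAA2 lay at the threshold (limma adjusted p = 0.05 after rounding), so the rounded values do not settle which gene was the third.

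The median over the 10 genes between the lines over all arrays was -0.32. It was -0.45 with centred arrays, -0.44 after a further quantile normalization and from -0.38 to -0.18 with an array left out, -0.18 being without the A549 control. Quantile normalization took the control median to -0.63. The hairpin 1 median fell from 0.20 to 0.0748 after quantile normalization and to 0.075 after removal of the trend. Quantile normalization took the median over all genes tested from 0.10 to -0.01 for hairpin 1 and from 0.05 to -0.07 between the controls.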

Other observations

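TBC1D4, which acts on glucose transport, was at 4.82 on the CRL-5907 control and 5.53 with overexpression, and MARK1, an AMPK-related kinase, at 3.95 and 4.57. All 4 values lie below the array medians and were not shown to exceed background. MELK, a family member known from dividing cells, differed by 0.46 with overexpression, by 0.11 with hairpin 1 and by 0.35 with hairpin 2, below the array medians throughout. PFKFB3, an inducer of glycolysis, differed by -0.55 with hairpin 1, by -0.35 with hairpin 2 and by 0.47 with overexpression, above the level filter in both lines.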
